A study of Mus musculus with 18 samples.

Results

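The genes described here are 64 mouse genes of glutathione metabolism and of the NRF2 antioxidant response, out of 55487 gene rows in the counts. They were chosen by name and not by any measured value. The name families were glutathione transferases (symbols beginning Gsta, Gstk, Gstm, Gsto, Gstp, Gstt or Gstz, and Mgst), glutathione peroxidases (Gpx) and peroxiredoxins (Prdx). To these were added the glutathione synthesis and recycling genes Gclc, Gclm, Gss, Gsr and Slc7a11, the regulators Nfe2l2 and Keap1, Txn1, Txnrd1 and Srxn1 of the thioredoxin system, the pentose phosphate enzymes G6pdx, Pgd, Taldo1 and Tkt, and Nqo1, Hmox1, Cbr1, Cbr2 and Cbr3. Of the 64, 5 are annotated as pseudogenes.

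Polyadenylated RNA came from im-TEC, mouse kidney tubular epithelial cells that are conditionally immortalized with the SV40 large T antigen. Cells of every group, control included, had been kept at the restrictive temperature without interferon-γ before the experiment, to lower the antigen's activity. Libraries were made with QuantSeq, which reads each transcript near its 3′ end. There were 3 libraries in each of 6 groups, all of cells treated for 48 h: transforming growth factor β at 10 ng/mL with S-adenosyl methionine at 0.5 mM (TGFβ+SAM), TGFβ at 10 ng/mL with nicotinamide at 1 mM (TGFβ+NAM), SAM at 0.5 mM alone, NAM at 1 mM alone, TGFβ at 10 ng/mL alone, and control. All groups are of a single cell line, and the labels do not say whether the libraries of a group came from separate cultures, so the spread between them may be technical.

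NRF2, the transcription factor encoded by Nfe2l2, is bound and marked for degradation by KEAP1 until oxidants or electrophiles modify KEAP1. NRF2 then enters the nucleus, pairs with a small MAF protein and binds antioxidant response elements near genes for glutathione synthesis, conjugation of toxic compounds and NADPH supply. Glutathione is built from glutamate, cysteine and glycine, is spent by peroxidases and transferases, and is returned to its reduced form by glutathione reductase with NADPH. Kidney tubule cells detoxify and reabsorb what the blood filter lets through and use these enzymes heavily. SAM is the methyl donor of the cell and, through transsulfuration, a source of cysteine, and nicotinamide is a precursor of NAD and a substrate for methylation by SAM.

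The core of the antioxidant response element, TGACNNNGC, was looked for on both strands of RefSeq promoter windows of build GRCm38.p6, which run from 250 bases before to 50 bases after a gene's start. The motif was present in 12.4% of all 32851 windows and in at least 1 window of 14% of the 27025 genes that have one. Of the 64 genes, 52 had a window, and 11 of these, 21.2%, held the motif. Those without a window were Gclc, Gpx2-ps1, Gpx4-ps2, Gsr, Gsta4, Gstm2-ps1, Gstt2, Hmox1, Prdx2-rs3, Prdx6, Prdx6-ps2 and Prdx6b. The 11 stretches are printed below because the element is the sequence through which NRF2 is known to act on this gene group. Each is 29 bases long, is read 5′ to 3′ on the strand that carries the motif, and has the motif in capitals.
G6pdx, chrX:74428919-74428947, plus strand: gcgtgtgcttTGACTGAGCtgacccgcct
Gclm, chr3:122245413-122245441, minus strand: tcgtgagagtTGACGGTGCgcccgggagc
Gsta3, chr1:21240454-21240482, plus strand: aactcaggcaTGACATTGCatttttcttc
Gstm5, chr3:107895802-107895830, plus strand: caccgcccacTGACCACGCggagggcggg
Gstm7, chr3:107931725-107931753, minus strand: tctgaagaccTGACAAAGCgaagccaatc
Mgst1, chr6:138140461-138140489, minus strand: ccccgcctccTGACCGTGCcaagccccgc
Nfe2l2, chr2:75704885-75704913, minus strand: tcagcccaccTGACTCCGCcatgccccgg
Pgd, chr4:149166061-149166089, minus strand: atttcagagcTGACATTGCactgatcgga
Prdx1, chr4:116685456-116685484, minus strand: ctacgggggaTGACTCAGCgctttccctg
Srxn1, chr2:152105542-152105570, minus strand: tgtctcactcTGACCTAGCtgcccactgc
Txnrd1, chr10:82859104-82859132, minus strand: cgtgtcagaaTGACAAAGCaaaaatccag

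The motif begins before the start site in 9 of the 11 genes and after it in Pgd and Srxn1. A match describes these letters and is not evidence of binding, which was not measured here. The promoter of Gclm, the regulatory subunit of glutamate-cysteine ligase, is shown at greater length because this gene passed the test in 6 of the comparisons given below. Its 250 bases before the start hold the motif on the opposite strand, in capitals.
Gclm, chr3:122245307-122245556, plus strand: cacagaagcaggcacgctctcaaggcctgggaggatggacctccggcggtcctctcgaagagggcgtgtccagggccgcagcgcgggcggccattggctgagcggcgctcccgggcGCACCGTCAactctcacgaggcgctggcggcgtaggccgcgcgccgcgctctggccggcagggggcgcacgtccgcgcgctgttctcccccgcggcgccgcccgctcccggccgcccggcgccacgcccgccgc

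Each library held 4171170 to 7717626 reads in genes, and the 64 genes took 0.472% to 0.827% of them. Levels are given in CPM, a gene's reads relative to the scaled total of tested genes in its library. They are compared between groups for 1 gene and not between genes. Tubular markers checked the cell type: Aqp1, Pax8, Krt8, Cdh16 and Lrp2 were present with 9272 to 76461 reads in all, whereas Epcam and Hnf4a had no read, Slc34a1 had 6 and Cdh1 had 19. Lum and Thy1 of the 6 fibroblast markers, 3 of the 6 immune markers and 2 of the 4 endothelial markers had no read. The immune markers Csf1r and Cd68, a growth factor receptor and a lysosomal protein of macrophages, had 8195 and 1514 reads in all. Ptprc had 14 reads, and the fibroblast markers Col1a1 and Pdgfrb had 4274 and 137. The treatment tags of SAM replicates 2 and 3 carry entries that conflict with their titles. SAM values of the marker genes and of the further lists below are given only with both libraries kept. For the tested genes among the 64, results on SAM were also computed without these 2 libraries. That leaves a single SAM library, which is assumed to vary like the libraries of the other groups, so each such p-value rests on the spread of those groups and says nothing about spread among SAM libraries. Library numbers put the 6 SAM-treated libraries in a block of their own, so SAM and separate preparation cannot be told apart. By a chi-square of counts over genes, divided by its degrees of freedom, NAM replicate 3 differed from the other 2 NAM libraries at 9.24 and 10.5, which differed from each other at 3.47. For TGFβ+NAM replicate 1 the values were 15.8 and 11.5, against 5.21, and for TGFβ+SAM replicate 3 they were 11.9 and 10.6, against 5.94. No pair of replicates agreed within counting noise, at which this ratio is about 1.

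Of the 64 genes, 46 had enough reads to be tested. The other 18 comprised 9 with no read (Cbr3, Gpx2-ps1, Gpx5, Gpx6, Gsta1, Gstm4, Gstt4, Prdx2-rs3 and Prdx6-ps2) and 9 with at most 34 reads in all 18 libraries. The 9 were Gstp3 with 34 reads, Gstt1 with 26, Gstk1 with 14, Gstm3 with 7, Gsta2 with 5, and Gpx2, Gpx7, Gstp2 and Prdx6b with 1 each. Tested were 17 of 26 transferases, 5 of 10 peroxidases, 6 of 9 peroxiredoxins, all 5 synthesis and recycling genes, Nfe2l2 and Keap1, all 3 thioredoxin and sulfiredoxin genes, all 4 pentose phosphate genes and 4 of 5 quinone, carbonyl and haem genes. A gene is called higher or lower where its adjusted p, from edgeR's quasi-likelihood test with Benjamini-Hochberg adjustment over all 13469 genes tested in the comparison, is under 0.05.

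Many of the tested genes were lower with TGFβ and few were higher. Without a supplement, 19 of the 46 tested genes were lower and 3 higher with TGFβ than in control cells, where 9.74% of all genes tested were lower and 9.7% higher. In either direction 19.4% of all genes tested passed. Of the 46, 8 passed at 2-fold lower or more and 1 at 2-fold higher or more, against 3.22% and 2.56% of all genes tested. The same cytokine effect can be read on 2 further backgrounds that share no library with the first. With NAM present 21 were lower and 4 higher, against 11% and 10.9% of all genes, and with SAM present 28 were lower and 4 higher, against 14.2% and 14.2%. In either direction 21.9% of all genes passed with NAM present and 28.4% with SAM present. At 2-fold or more, 8 were lower and 1 higher with NAM present, against 3.93% and 3.04% of all genes, and 15 were lower and 2 higher with SAM present, against 5.26% and 4.05%. With replicate 1 as the only SAM library, 22 were lower and 3 higher with SAM present, against 15.5% of all genes in either direction. The median log2 change of the 46 was -0.39 without a supplement, -0.44 with NAM and -0.56 with SAM, whereas the medians of all genes tested lay between 0.00181 and 0.00857.

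Across the 3 backgrounds 17 genes were lower each time: Cbr1, Gclc, Gclm, Gpx3, Gsta3, Gstm1, Gstm2, Gstm2-ps1, Gstm7, Gstp1, Mgst1, Mgst2, Nfe2l2, Pgd, Prdx6, Srxn1 and Tkt. Cbr2, Gpx1 and Gsto1 were higher each time. The share of all genes tested that were lower, or higher, on all 3 backgrounds was not computed. These lists therefore describe the named genes only. The summed level of the 64 genes was 5156 ± 171 CPM in TGFβ libraries, against 6853 ± 85.7 CPM in control libraries (SD, n = 3 each). It was 5038 ± 105 CPM in TGFβ+NAM libraries, against 6672 ± 64.5 CPM in NAM libraries. It was 5483 ± 136 CPM in TGFβ+SAM libraries, against 8253 ± 136 CPM in SAM libraries.

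Other features of the cells moved with TGFβ. The summed level of the 12 tubular markers was 625 to 690.2 CPM in TGFβ libraries, against 1648 to 1722 CPM in control libraries. Aqp1 at -3.28 ± 0.11, Cdh16, Lrp2 and Pax8 were lower, whereas the keratin Krt8 was higher at 0.93 ± 0.10. The 6 fibroblast markers summed to 109 to 114 CPM in TGFβ libraries, against 3.29 to 7.09 CPM in control libraries. Nearly all of it was Col1a1, a collagen that TGFβ is known to induce, while Pdgfra had 3 reads and Dcn 9 in all 18 libraries. Pdgfrb, with 137 reads in all, was higher with TGFβ by 4.24 ± 1.19 (SE), adjusted p = 0.00817. With SAM present Pdgfrb was higher by 6.86 ± 1.59 (adjusted p = 0.000905), and with NAM present its change of 2.28 ± 0.94 did not pass (adjusted p = 0.0814). The 6 immune markers, nearly all Csf1r and Cd68, summed to 55.8 to 73.2 CPM in TGFβ libraries, against 100.3 to 102 CPM in control libraries, and the 4 endothelial markers to 0 in both. Mitochondrial genes took 6.6% to 7.73% of gene reads in the 9 libraries with TGFβ, against 7.99% to 10.5% in the 9 without. The part of these shifts in the results was not tested. In bulk RNA, fewer cells of a type and less RNA of a gene per cell cannot be told apart.

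**Figure D1:**
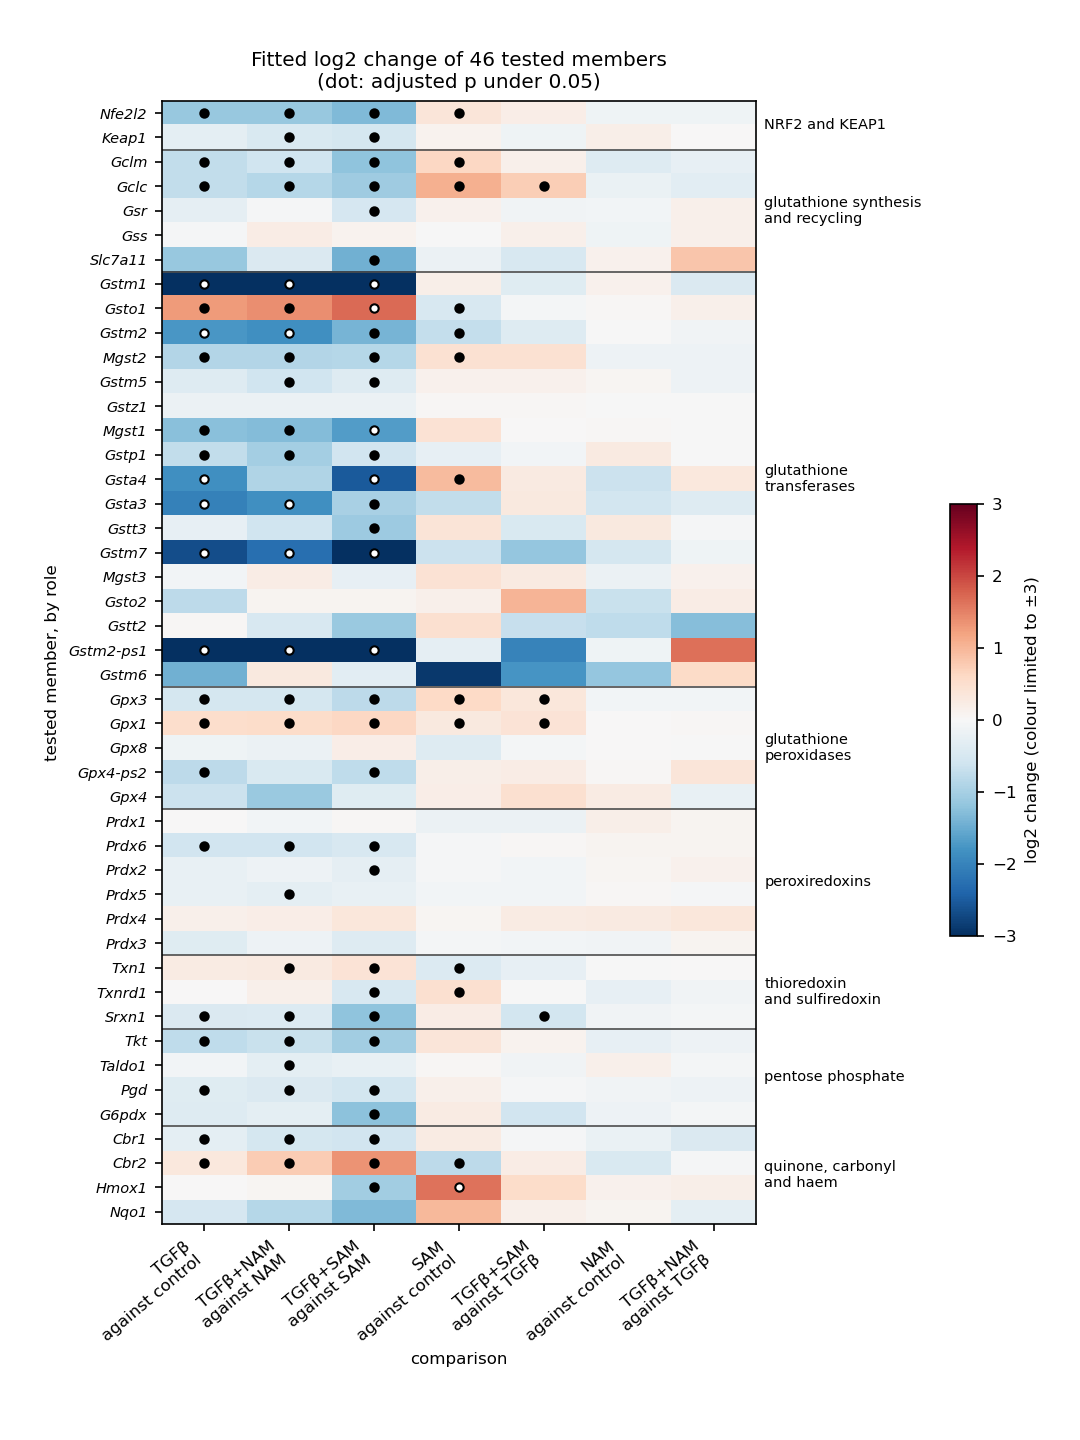
Heat map of the fitted log2 change of the 46 tested genes (rows, by role) in 7 comparisons (columns), blue for lower and red for higher, with a dot where the adjusted p is under 0.05 and the colour limited at 3 in size. The 3 TGFβ columns at the left are mostly blue, with 19, 21 and 28 genes lower, and the 2 NAM columns at the right hold no dot. The colour of Gstm2-ps1, which has 0 to 4 reads in libraries with TGFβ, depends on the prior count of the fit.

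Nfe2l2 (chr2:75675513-75704641 in GRCm38), which encodes NRF2, was itself lower with TGFβ. It had 80.2, 92.5 and 77.1 CPM in TGFβ libraries, against 199.99, 175 and 179 CPM in control libraries. The 2 groups did not overlap, and the log2 change was -1.14 ± 0.10 (SE), adjusted p = 7.78e-12, a 2.21-fold difference. With NAM present it had 69.5, 72.3 and 88.4 CPM in TGFβ+NAM libraries, against 173, 172 and 157 CPM in NAM libraries, a log2 change of -1.13 ± 0.10. With SAM present it had 101, 96.6 and 88.6 CPM in TGFβ+SAM libraries, against 236, 246 and 235 CPM in SAM libraries, a log2 change of -1.32 ± 0.10. The highest of the 9 libraries with TGFβ had 101 CPM and the lowest of the 9 without it 157 CPM. Keap1, whose product marks NRF2 for degradation, had a log2 change of -0.29 ± 0.12 without a supplement, which did not pass (adjusted p = 0.0876). It was lower with NAM present at a log2 change of -0.45 ± 0.12 (adjusted p = 0.00383) and with SAM present at a log2 change of -0.52 ± 0.12 (adjusted p = 0.000749).

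Both subunits of glutamate-cysteine ligase, which carries out the rate-limiting step of glutathione synthesis, were lower with TGFβ on every background. Gclc (chr9:77754535-77794485), the catalytic subunit, had 141, 140.1 and 111 CPM in TGFβ libraries, against 224, 225 and 206 CPM in control libraries, a log2 change of -0.74 ± 0.10 (SE), adjusted p = 3.78e-07. It had 96.98, 104 and 112 CPM in TGFβ+NAM libraries, against 183, 202 and 185 CPM in NAM libraries. It had 258, 207 and 193 CPM in TGFβ+SAM libraries, against 467, 432 and 486 CPM in SAM libraries. No pair of groups overlapped, and the changes on the NAM and SAM backgrounds were -0.86 ± 0.10 and -1.07 ± 0.10. The SAM-treated libraries lay above the corresponding ones without SAM both with and without TGFβ.

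Gclm (chr3:122245557-122270732), the regulatory subunit, had 248, 243 and 203 CPM in TGFβ libraries, against 398, 381 and 374 CPM in control libraries, a log2 change of -0.73 ± 0.08 (SE), adjusted p = 6.29e-09. It had 194, 187 and 205 CPM in TGFβ+NAM libraries, against 305, 290.4 and 286 CPM in NAM libraries, a log2 change of -0.59 ± 0.08. It had 264, 262 and 246 CPM in TGFβ+SAM libraries, against 626, 569.7 and 588 CPM in SAM libraries, a log2 change of -1.21 ± 0.08. The groups with and without TGFβ did not overlap on any background, and the SAM libraries without TGFβ were the highest of all 18. Gss, which adds the glycine, was not called in any of the 7 pairwise comparisons, and its TGFβ change was -0.04 ± 0.20 with a 95% interval of -0.44 to 0.35. Gsr, glutathione reductase, was called with SAM present, at -0.51 ± 0.17 (SE), adjusted p = 0.0226, and had -0.28 ± 0.18 without a supplement (adjusted p = 0.303). The Gsr call was lost without SAM replicate 2 (adjusted p = 0.0586), SAM replicate 3 (adjusted p = 0.0698) or TGFβ+SAM replicate 2 (adjusted p = 0.0776), and without SAM replicates 2 and 3 it was -0.41 (adjusted p = 0.305). Slc7a11, the cystine importer, had few reads, 527 in all 18 libraries. It had 1.85, 3.77 and 2.46 CPM in TGFβ libraries, against 6.48, 4.72 and 6.76 CPM in control libraries, without overlap. That fall did not pass with edgeR on all 18 libraries. It passed with DESeq2 at -1.14 (adjusted p = 0.04) and without TGFβ replicate 2 at -1.48 (adjusted p = 0.0496). TGFβ+NAM libraries had 5.50, 5.61 and 3.41 CPM, which overlapped the NAM libraries at 6.67, 7.71 and 5.16 CPM. With SAM present Slc7a11 had 3.37, 0.979 and 1.55 CPM in TGFβ+SAM libraries, against 4.10, 6.72 and 5.17 CPM in SAM libraries. The log2 change was -1.45 ± 0.46 (SE), adjusted p = 0.0151. That call was lost without SAM replicate 2 (adjusted p = 0.0733), TGFβ+SAM replicate 2 (adjusted p = 0.0966) or TGFβ+SAM replicate 3 (adjusted p = 0.0604), and without SAM replicates 2 and 3 it was -1.07 (adjusted p = 0.284).

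The largest falls were among the glutathione transferases, which join glutathione to reactive compounds. Of the 17 tested, 9 were lower and 1 higher with TGFβ alone, 9 and 1 with NAM present and 11 and 1 with SAM present. Of all genes tested, 9.74%, 11% and 14.2% were lower in these comparisons, and 9.7%, 10.9% and 14.2% higher. Among the 46 genes, leaving aside the pseudogene Gstm2-ps1, Gstm1 had the largest fitted fall in all 3 comparisons. It had 64.2, 50.9 and 46.2 CPM in TGFβ libraries, against 665, 663 and 624 CPM in control libraries, a log2 change of -3.59 ± 0.13 (SE), adjusted p = 2.38e-24, or 12.0-fold lower. It had 50.7, 37.5 and 31.4 CPM in TGFβ+NAM libraries, against 701, 645 and 796 CPM in NAM libraries, a log2 change of -4.16 ± 0.13. It had 49.3, 33.4 and 44.4 CPM in TGFβ+SAM libraries, against 758, 721 and 744 CPM in SAM libraries, a log2 change of -4.13 ± 0.13. The highest of the 9 libraries with TGFβ was 64.2 CPM and the lowest of the 9 without it was 624 CPM.

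Gstm1 lies in a cluster of mu-class genes on chromosome 3, where Gstm5 (chr3:107895821-107898686), Gstm7 (chr3:107926334-107931817), Gstm6 (chr3:107938847-107943749), Gstm3 (chr3:107963696-107969283), Gstm2 (chr3:107981702-107986453), Gstm1 (chr3:108012255-108017973) and Gstm4 (chr3:108040408-108044894) follow each other. Mu-class copies are alike in sequence: 23% of the 50-base words of the last 500 bases of Gstm1 transcripts also occur in other genes, 15.6% in Gstm2-ps1, whereas Gstm5 and Gstm7 share none. Gstm2 had 47.01, 38.2 and 40.8 CPM in TGFβ libraries, against 137, 148 and 137 CPM in control libraries, a log2 change of -1.74 ± 0.13 (SE), adjusted p = 9.4e-14. It had 31.7, 41.5 and 43.6 CPM in TGFβ+NAM libraries, against 139.99, 137 and 139.7 CPM in NAM libraries, a log2 change of -1.83 ± 0.13. Gstm2 also had 27.99, 27.2 and 40.97 CPM in TGFβ+SAM libraries, against 74.4, 93.6 and 87.1 CPM in SAM libraries, a log2 change of -1.40 ± 0.14. The groups were apart on all 3 backgrounds, and the SAM libraries of Gstm2 lay below the NAM and control libraries.

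Gstm7 had 2.19, 3.61 and 2.21 CPM in TGFβ libraries, against 15.9, 19.6 and 16.4 CPM in control libraries, a log2 change of -2.66 ± 0.37 (SE), adjusted p = 4.82e-07. It had 4.08, 1.44 and 1.97 CPM in TGFβ+NAM libraries, against 13.1, 13.7 and 9.07 CPM in NAM libraries, a log2 change of -2.26 ± 0.38. Gstm7 further had 1.59, 0.326 and 1.71 CPM in TGFβ+SAM libraries, against 8.20, 13.8 and 11.2 CPM in SAM libraries, a log2 change of -3.17 ± 0.42. No library with TGFβ reached the lowest library without it. Gstm5 had smaller changes of -0.38 ± 0.14 without a supplement (adjusted p = 0.0562), -0.60 ± 0.14 with NAM (adjusted p = 0.00164) and -0.39 ± 0.14 with SAM (adjusted p = 0.0349). Without SAM replicates 2 and 3 the last of these was -0.21 (adjusted p = 0.559), and it was also lost without SAM replicate 2 (adjusted p = 0.1), SAM replicate 3 (adjusted p = 0.134), TGFβ+SAM replicate 1 (adjusted p = 0.143) or TGFβ+SAM replicate 3 (adjusted p = 0.0712). Gstm6, with 83 reads in all, was not called in any comparison. The processed pseudogene Gstm2-ps1 on chromosome 5 had 0, 1 and 0 reads in TGFβ libraries, against 21, 21 and 15 reads in control libraries. It had 0, 0 and 4 reads in TGFβ+NAM libraries, against 20, 13 and 23 in NAM libraries, and 0, 0 and 0 reads in TGFβ+SAM libraries, against 10, 17 and 17 in SAM libraries. Its call with NAM present was lost without TGFβ+NAM replicate 1 (adjusted p = 0.0544) or TGFβ+NAM replicate 2 (adjusted p = 0.0665) and, with both NAM replicate 3 and TGFβ+NAM replicate 1 left out, had an adjusted p of 0.113. Since 42.4% of its words also occur in Gstm1, its reads are uncertain as a separate signal.

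Among the alpha-class transferases, Gsta3 had 8.42, 3.30 and 1.72 CPM in TGFβ libraries, against 18.2, 19.3 and 19.1 CPM in control libraries, a log2 change of -2.02 ± 0.33 (SE), adjusted p = 8.56e-06. It had 3.90, 3.21 and 3.59 CPM in TGFβ+NAM libraries, against 15.4, 12.2 and 11.02 CPM in NAM libraries, a log2 change of -1.85 ± 0.34. With SAM it had 4.43, 7.34 and 5.28 CPM in TGFβ+SAM libraries, against 13.2, 9.38 and 11.2 CPM in SAM libraries, a log2 change of -0.98 ± 0.33 (adjusted p = 0.0199). The groups were apart each time, and the call on the SAM background was lost without SAM replicate 1 (adjusted p = 0.0913), TGFβ+SAM replicate 1 (adjusted p = 0.0891) or TGFβ+SAM replicate 3 (adjusted p = 0.0582). Gsta4, which is known for clearing the lipid peroxidation product 4-hydroxynonenal, had 3.71, 4.56 and 3.44 CPM in TGFβ libraries, against 13.8, 16.01 and 12.8 CPM in control libraries, a log2 change of -1.85 ± 0.35 (SE), adjusted p = 8.27e-05. With SAM present it had 8.15, 2.61 and 3.72 CPM in TGFβ+SAM libraries, against 23.995, 29.2 and 29.1 CPM in SAM libraries, a log2 change of -2.52 ± 0.33 (SE), adjusted p = 8.06e-08. With NAM it had 4.26, 7.37 and 2.87 CPM in TGFβ+NAM libraries, against 7.25, 13.7 and 6.28 CPM in NAM libraries, where the groups overlapped and the change of -0.90 ± 0.34 did not pass (adjusted p = 0.0531).

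The microsomal transferases sit in membranes and also reduce lipid peroxides. Mgst1 had 16.2, 15.6 and 15.97 CPM in TGFβ libraries, against 33.5, 39.7 and 40.9 CPM in control libraries, a log2 change of -1.26 ± 0.18 (SE), adjusted p = 1.09e-06. It had 20.6, 14.1 and 12.7 CPM in TGFβ+NAM libraries, against 36.6, 34.8 and 44.9 CPM in NAM libraries, a log2 change of -1.29 ± 0.18. With SAM present Mgst1 had 12.8, 16.5 and 18.8 CPM in TGFβ+SAM libraries, against 58.2, 44.7 and 51.7 CPM in SAM libraries, a log2 change of -1.68 ± 0.18. The groups were apart on each background. Mgst2, which can also conjugate leukotriene A4, was lower by a similar fitted amount on each, -0.88 ± 0.15 without a supplement, -0.88 ± 0.15 with NAM and -0.86 ± 0.15 with SAM. Mgst3 was not called in any comparison, with a TGFβ change of -0.07 ± 0.35.

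Gstp1 (chr19:4035407-4037985), the pi-class transferase, had 20.2, 17.9 and 27.03 CPM in TGFβ libraries, against 28.9, 42.3 and 35.5 CPM in control libraries, a log2 change of -0.73 ± 0.21 (SE), adjusted p = 0.00924. That call was lost without control replicate 2 (adjusted p = 0.0885) or TGFβ replicate 2 (adjusted p = 0.0759). With NAM it had 27.7, 16.3 and 19.7 CPM in TGFβ+NAM libraries, against 38.2, 40.3 and 50.8 CPM in NAM libraries, a log2 change of -1.02 ± 0.20 (SE), adjusted p = 0.000173. With SAM it had 13.5, 21.7 and 25.1 CPM in TGFβ+SAM libraries, against 35.2, 26.3 and 28.3 CPM in SAM libraries, a log2 change of -0.57 ± 0.21 (SE), adjusted p = 0.0362, lost without SAM replicate 1 (adjusted p = 0.197), SAM replicate 3 (adjusted p = 0.051), TGFβ+SAM replicate 1 (adjusted p = 0.255) or TGFβ+SAM replicate 2 (adjusted p = 0.0534). The groups were apart each time, and 37.7% of the 3′ words of Gstp1 also occur in Gstp2, its neighbour, which had 1 read. Gstt3 of the theta class had 6.38, 5.87 and 5.59 CPM in TGFβ+SAM libraries, against 16.6, 11.1 and 10.2 CPM in SAM libraries, a log2 change of -1.09 ± 0.30 (SE), adjusted p = 0.00533, lost without SAM replicate 1 (adjusted p = 0.0657). It had 6.57, 9.90 and 7.86 CPM in TGFβ libraries, against 8.46, 13.4 and 7.09 CPM in control libraries, where the groups overlapped and the change was -0.25 ± 0.30. It had 10.6, 7.85 and 5.20 CPM in TGFβ+NAM libraries, against 12.04, 11.3 and 12.4 CPM in NAM libraries, with a change of -0.59 ± 0.30 that did not pass (adjusted p = 0.162).

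Gsto1 (chr19:47854970-47864790), the omega-class enzyme that reduces dehydroascorbate and arsenic compounds, went the other way. It had 351, 311 and 362 CPM in TGFβ libraries, against 141, 141 and 136 CPM in control libraries, a log2 change of 1.29 ± 0.09 (SE), adjusted p = 1.76e-14, or 2.44-fold higher. With NAM it had 428, 353 and 349.99 CPM in TGFβ+NAM libraries, against 135, 136 and 156 CPM in NAM libraries, a log2 change of 1.40 ± 0.09. With SAM it had 313, 342 and 320.3 CPM in TGFβ+SAM libraries, against 98.7, 105 and 96.03 CPM in SAM libraries, a log2 change of 1.70 ± 0.09. The lowest library with TGFβ, at 311 CPM, was above the highest without it, at 156 CPM. The adjacent gene Gsto2 (chr19:47865534-47886324), with 279 reads in all, had a TGFβ change of -0.79 ± 0.74 and was not called in any comparison. Gstz1, which acts in tyrosine breakdown, and Gstt2 were not called either, with TGFβ changes of -0.18 ± 0.16 and 0.04 ± 0.64.

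**Figure D2:**
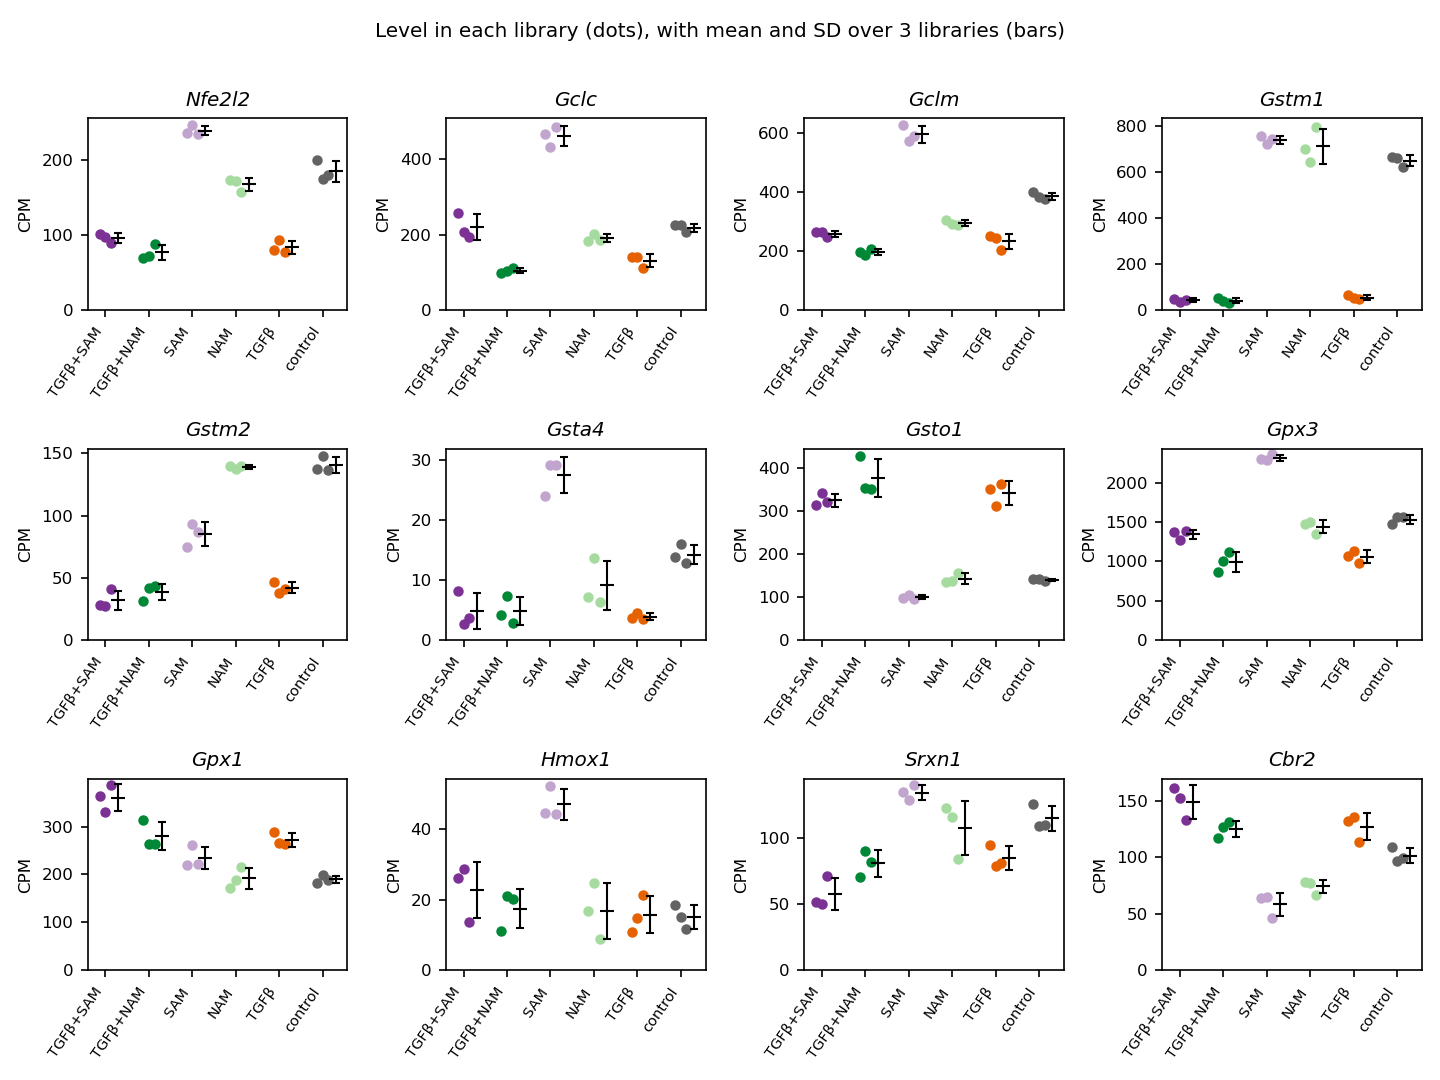
Level of 12 genes in each of the 18 libraries (dots, CPM) by group, with mean and SD over 3 libraries (bars), TGFβ groups left of their controls in each pair. Nfe2l2, Gclc, Gclm and Gstm1 are lower with TGFβ on each background, Gsto1 and Gpx1 are higher, and Gclc, Gclm, Gpx3 and Hmox1 are highest in SAM libraries.

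Glutathione peroxidases reduce hydrogen peroxide and lipid peroxides at the expense of glutathione, and the 2 best-covered ones moved in opposite directions with TGFβ. Gpx3, the secreted form that the kidney tubule is known to supply to plasma, had 1073, 1134 and 981 CPM in TGFβ libraries, against 1469.8, 1564 and 1562 CPM in control libraries, a log2 change of -0.53 ± 0.08 (SE), adjusted p = 1.73e-06. It was lower at a log2 change of -0.53 ± 0.08 with NAM and at a log2 change of -0.78 ± 0.08 with SAM, without overlap. Gpx1, the form of the cytosol and mitochondria, had 288, 265 and 263 CPM in TGFβ libraries, against 183, 198 and 187 CPM in control libraries, a log2 change of 0.52 ± 0.10 (SE), adjusted p = 5.1e-05. It was higher by 0.55 ± 0.10 with NAM and by 0.62 ± 0.09 with SAM, again without overlap. Gpx8, of the endoplasmic reticulum, was not called in any comparison. Gpx4, which protects membrane lipids from peroxidation and is known for restraining ferroptosis, had 464 reads in all and was not called. The row of its processed pseudogene Gpx4-ps2 had 2281 reads and was lower with TGFβ at a log2 change of -0.79 ± 0.22 (SE), adjusted p = 0.00699, lost without TGFβ replicate 2 (adjusted p = 0.0531). With SAM present it was -0.75 ± 0.21 (SE), adjusted p = 0.00589, lost without TGFβ+SAM replicate 2 (adjusted p = 0.0596). Of the 3′ words of Gpx4, 57.9% also occur in Gpx4-ps2, so the counts do not separate the gene from the copy.

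Of the 6 tested peroxiredoxins, which reduce peroxides mostly with thioredoxin, 1 was lower with TGFβ alone, 2 with NAM present and 2 with SAM present. Of all genes tested, 9.74%, 11% and 14.2% were lower in these comparisons. Prdx6, which also has phospholipase activity, had 238, 284 and 246 CPM in TGFβ libraries, against 348, 392 and 398 CPM in control libraries, a log2 change of -0.56 ± 0.09 (SE), adjusted p = 2.65e-06. Its changes were -0.58 ± 0.09 with NAM and -0.48 ± 0.09 with SAM. Prdx5 passed with NAM present, at -0.29 ± 0.09 (SE), adjusted p = 0.0182, lost without NAM replicate 3 (adjusted p = 0.146), TGFβ+NAM replicate 2 (adjusted p = 0.091) or TGFβ+NAM replicate 3 (adjusted p = 0.0977). Prdx2 passed with SAM present, at -0.27 ± 0.09 (SE), adjusted p = 0.0234, lost without SAM replicate 2 (adjusted p = 0.142), TGFβ+SAM replicate 1 (adjusted p = 0.0653) or TGFβ+SAM replicate 2 (adjusted p = 0.0522), and it was -0.18 (adjusted p = 0.423) without SAM replicates 2 and 3. The 3′ end of Prdx2 overlaps that of Junb on the opposite strand, and no source used here gives the counting's strand setting. Prdx1, a cytosolic member, had a TGFβ change of 0.01 ± 0.08 with a 95% interval of -0.15 to 0.17. Prdx3 of mitochondria and Prdx4 of the secretory pathway were not called in any comparison.

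In the thioredoxin system, Srxn1, the sulfiredoxin that repairs overoxidised peroxiredoxins, was lower with TGFβ. It had 94.7, 78.6 and 80.6 CPM in TGFβ libraries, against 125, 109 and 109.8 CPM in control libraries, a log2 change of -0.44 ± 0.13 (SE), adjusted p = 0.0117. That call was lost without control replicate 1 (adjusted p = 0.0856), TGFβ replicate 2 (adjusted p = 0.0732) or TGFβ replicate 3 (adjusted p = 0.0587). It had 70.03, 89.9 and 81.98 CPM in TGFβ+NAM libraries, against 122, 115 and 83.8 CPM in NAM libraries, where NAM replicate 3 lay among the TGFβ+NAM libraries, a log2 change of -0.41 ± 0.13 (SE), adjusted p = 0.0171, lost without NAM replicate 1 (adjusted p = 0.154), NAM replicate 2 (adjusted p = 0.0928) or TGFβ+NAM replicate 1 (adjusted p = 0.101). It had 51.4, 50.2 and 71.1 CPM in TGFβ+SAM libraries, against 135, 128 and 139 CPM in SAM libraries, a log2 change of -1.22 ± 0.13 (SE), adjusted p = 6.73e-10, with the groups apart. Txnrd1, the cytosolic thioredoxin reductase, had a TGFβ change of 0.00 ± 0.10 (95% interval -0.20 to 0.21) without a supplement and was lower with SAM present at a log2 change of -0.49 ± 0.10 (SE), adjusted p = 0.000189. Without SAM replicates 2 and 3 that change was -0.40 (adjusted p = 0.0559). Txn1, thioredoxin, was higher with TGFβ when NAM was present, at 0.27 ± 0.09 (SE), adjusted p = 0.0327, and when SAM was present, at 0.41 ± 0.09 (SE), adjusted p = 0.000762, or 0.38 (adjusted p = 0.0597) without SAM replicates 2 and 3. The Txn1 call with NAM was lost without NAM replicate 1 (adjusted p = 0.208), NAM replicate 2 (adjusted p = 0.0803), TGFβ+NAM replicate 1 (adjusted p = 0.0889) or TGFβ+NAM replicate 3 (adjusted p = 0.0816), where the groups overlapped, and without a supplement the change was 0.25 ± 0.09 (adjusted p = 0.0544).

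The pentose phosphate pathway supplies the NADPH that reduces glutathione and thioredoxin. Tkt, the transketolase of its non-oxidative branch, had 173, 208 and 153 CPM in TGFβ libraries, against 282, 309.7 and 319.8 CPM in control libraries, a log2 change of -0.77 ± 0.15 (SE), adjusted p = 0.000132. It had 104, 189 and 190.2 CPM in TGFβ+NAM libraries, against 267, 310.2 and 196 CPM in NAM libraries, a log2 change of -0.68 ± 0.15, with the groups apart by a narrow margin. With SAM it had 215, 195 and 162 CPM in TGFβ+SAM libraries, against 392, 339 and 444 CPM in SAM libraries, a log2 change of -1.04 ± 0.15. Pgd, the second NADPH-forming enzyme, was lower at a log2 change of -0.37 ± 0.10, -0.43 ± 0.10 and -0.56 ± 0.10 without a supplement, with NAM and with SAM. G6pdx, the rate-limiting enzyme of the oxidative branch, had 14.5, 15.8 and 12.7 CPM in TGFβ+SAM libraries, against 39.8, 27.4 and 33.4 CPM in SAM libraries, a log2 change of -1.22 ± 0.20 (SE), adjusted p = 5.66e-06. It had 21.1, 26.9 and 15.5 CPM in TGFβ libraries, against 31.1, 26.6 and 26.5 CPM in control libraries, with a change of -0.39 ± 0.20 (adjusted p = 0.174). It had 20.2, 18.7 and 22.96 CPM in TGFβ+NAM libraries, against 19.9, 24.9 and 30.5 CPM in NAM libraries, with a change of -0.28 ± 0.20 (adjusted p = 0.344). The G6pdx groups were apart with SAM and overlapped on the other backgrounds. Taldo1, transaldolase, passed with NAM present, at -0.29 ± 0.10 (SE), adjusted p = 0.0412, lost without NAM replicate 2 (adjusted p = 0.135), NAM replicate 3 (adjusted p = 0.117), TGFβ+NAM replicate 2 (adjusted p = 0.125) or TGFβ+NAM replicate 3 (adjusted p = 0.192).

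Of the quinone, carbonyl and haem enzymes, Cbr2 (chr11:120729489-120732114), a mitochondrial carbonyl reductase, was higher with TGFβ. It had 132, 136 and 113 CPM in TGFβ libraries, against 109, 96.9 and 98.98 CPM in control libraries, a log2 change of 0.33 ± 0.11 (SE), adjusted p = 0.0347. That call was lost without control replicate 2 (adjusted p = 0.136), control replicate 3 (adjusted p = 0.122), TGFβ replicate 1 (adjusted p = 0.116) or TGFβ replicate 2 (adjusted p = 0.157). It had 118, 126 and 131 CPM in TGFβ+NAM libraries, against 77.9, 77.6 and 67.1 CPM in NAM libraries, a log2 change of 0.75 ± 0.11. It had 162, 153 and 133 CPM in TGFβ+SAM libraries, against 63.9, 64.7 and 46.6 CPM in SAM libraries, a log2 change of 1.35 ± 0.12. The groups were apart each time. Of its 3′ words, 14.8% also occur in Gm11771. Cbr1, the cytosolic carbonyl reductase, was lower at a log2 change of -0.29 ± 0.10 (SE), adjusted p = 0.0496, a call lost without control replicate 1 (adjusted p = 0.15), control replicate 2 (adjusted p = 0.13), control replicate 3 (adjusted p = 0.0632), TGFβ replicate 1 (adjusted p = 0.067), TGFβ replicate 2 (adjusted p = 0.063) or TGFβ replicate 3 (adjusted p = 0.241), and at a log2 change of -0.52 ± 0.11 with NAM and -0.57 ± 0.10 with SAM. Hmox1, the inducible haem oxygenase and a standard NRF2 target, had 10.95, 14.8 and 21.4 CPM in TGFβ libraries, against 18.6, 15.2 and 11.8 CPM in control libraries, which overlapped, with a change of 0.02 ± 0.29 (95% interval -0.56 to 0.60). It had 10.99, 20.99 and 20.3 CPM in TGFβ+NAM libraries, against 16.7, 24.8 and 8.79 CPM in NAM libraries, with a change of 0.05 ± 0.28. Hmox1 had 26.05, 28.7 and 13.8 CPM in TGFβ+SAM libraries, against 44.5, 52.05 and 44.3 CPM in SAM libraries, a log2 change of -1.04 ± 0.26 (SE), adjusted p = 0.00201, and -0.96 (adjusted p = 0.0688) without SAM replicates 2 and 3. Nqo1, another standard NRF2 target, had 347 reads in all and was not called in any comparison.

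**Figure D3:**
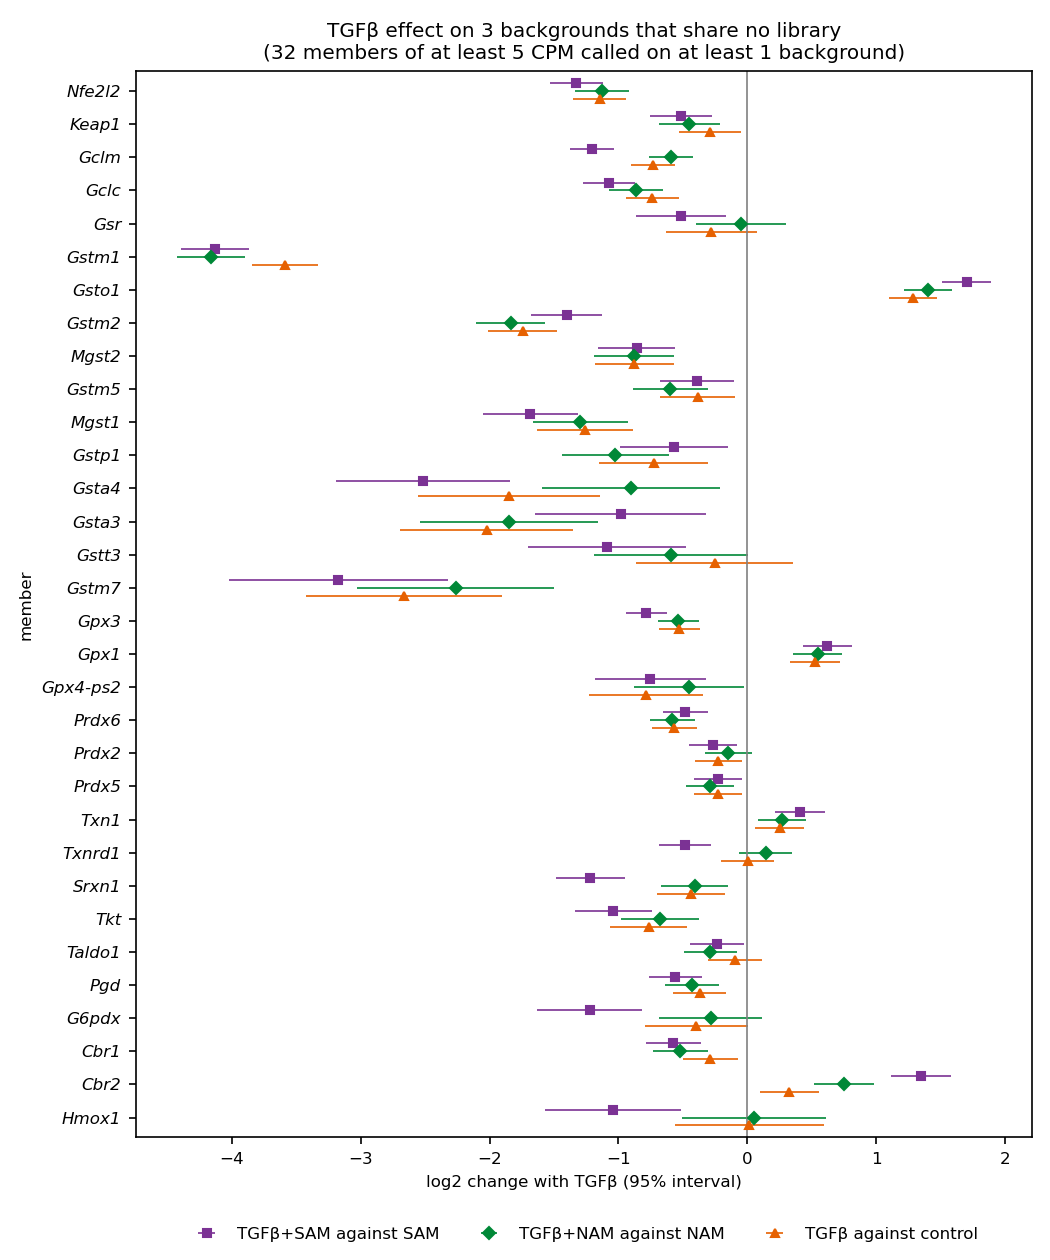
Fitted log2 change with TGFβ, with 95% interval (x axis), of 32 genes of at least 5 CPM called on at least 1 background (rows), for TGFβ+SAM against SAM (squares), TGFβ+NAM against NAM (diamonds) and TGFβ against control (triangles), which share no library. The Gstm1 points lie at -4.13, -4.16 and -3.59, and those of Gsto1 at 1.70, 1.40 and 1.29, while Gclm, Srxn1 and Cbr2 are farthest from 0 with SAM present.

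In SAM libraries without TGFβ 9 of the 46 genes were higher and 4 lower than in control libraries, where 5.02% of all genes tested were higher and 6.79% lower, 11.8% in all. At 2-fold or more 2 were higher, Gclc and Hmox1, against 0.423% of all genes. The 9 were Gclc, Gclm, Gpx1, Gpx3, Gsta4, Hmox1, Mgst2, Nfe2l2 and Txnrd1, and the 4 were Cbr2, Gstm2, Gsto1 and Txn1. With replicate 1 as the only SAM library, 4 were higher and 3 lower, all among the 13, and 3.19% of all genes passed in either direction. The median log2 change of the 46 was 0.14, against 0.00119 over all genes tested. The tubular markers summed to 1829 to 1892 CPM in SAM libraries, against 1648 to 1722 CPM in control libraries. Their members differed in direction: Aqp1 was higher at 0.30 ± 0.10 (SE), adjusted p = 0.042, while Krt8 was lower at -0.62 ± 0.11 (SE), adjusted p = 6.14e-05 and Lrp2 at -0.77 ± 0.12 (SE), adjusted p = 1.31e-05. The fibroblast markers summed to 1.22 to 2.03 CPM in SAM libraries, against 3.29 to 7.09 CPM in control libraries. The immune markers summed to 113 to 132 CPM in SAM libraries, against 100.3 to 102 CPM in control libraries, where Cd68 was higher at 0.96 ± 0.25 (SE), adjusted p = 0.00776. Mitochondrial genes took 10.1% to 10.5% of gene reads in SAM libraries, against 9.45% to 9.72% in control libraries. The part of these in the result was not tested.

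Both subunits of glutamate-cysteine ligase were higher with SAM. Gclc had 467, 432 and 486 CPM in SAM libraries, against 224, 225 and 206 CPM in control libraries, a log2 change of 1.08 ± 0.10 (SE), adjusted p = 1.21e-10, or 2.11-fold, and 1.09 (adjusted p = 1e-06) without SAM replicates 2 and 3. Gclm had 626, 569.7 and 588 CPM in SAM libraries, against 398, 381 and 374 CPM in control libraries, a log2 change of 0.63 ± 0.08 (SE), adjusted p = 4.15e-07, and 0.70 (adjusted p = 0.000158) without the 2 libraries. The SAM libraries of both genes lay above all control libraries. Hmox1, at chr8:75093621-75100589, had the largest fitted rise of the 9: 44.5, 52.05 and 44.3 CPM in SAM libraries, against 18.6, 15.2 and 11.8 CPM in control libraries, a log2 change of 1.62 ± 0.27 (SE), adjusted p = 2.95e-05, and 1.54 (adjusted p = 0.00895) without the 2 libraries. Nfe2l2 itself had 236, 246 and 235 CPM in SAM libraries, against 199.99, 175 and 179 CPM in control libraries, a log2 change of 0.37 ± 0.10 (SE), adjusted p = 0.00749. That change was 0.35 (adjusted p = 0.196) without SAM replicates 2 and 3, and the call was also lost without control replicate 2 (adjusted p = 0.0612).

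Gpx3 had 2304, 2283 and 2359.7 CPM in SAM libraries, against 1469.8, 1564 and 1562 CPM in control libraries, a log2 change of 0.60 ± 0.08 (SE), adjusted p = 4.7e-07, and 0.59 (adjusted p = 0.00117) without SAM replicates 2 and 3. Txnrd1 had 189, 201 and 212 CPM in SAM libraries, against 149, 145 and 141 CPM in control libraries, a log2 change of 0.47 ± 0.10 (SE), adjusted p = 0.000979, and 0.38 (adjusted p = 0.155) without the 2. Gsta4 had 23.995, 29.2 and 29.1 CPM in SAM libraries, against 13.8, 16.01 and 12.8 CPM in control libraries, a log2 change of 0.95 ± 0.30 (SE), adjusted p = 0.0315. The groups of all 3 genes were apart. The Gsta4 call was lost without control replicate 1 (adjusted p = 0.104), control replicate 2 (adjusted p = 0.062), control replicate 3 (adjusted p = 0.119), SAM replicate 1 (adjusted p = 0.0503), SAM replicate 2 (adjusted p = 0.0966) or SAM replicate 3 (adjusted p = 0.104), that is, without any 1 library of the 6. Mgst2 and Gpx1 were higher with SAM by 0.45 ± 0.14 (adjusted p = 0.0332) and 0.30 ± 0.10 (adjusted p = 0.0297). With those 2 SAM libraries left out, Gsta4 had 0.75 (adjusted p = 0.419), Mgst2 0.59 (adjusted p = 0.107) and Gpx1 0.21 (adjusted p = 0.478). The Mgst2 call was lost without control replicate 1 (adjusted p = 0.121), control replicate 2 (adjusted p = 0.0884), control replicate 3 (adjusted p = 0.0838), SAM replicate 1 (adjusted p = 0.177) or SAM replicate 3 (adjusted p = 0.0722). The Gpx1 call was lost without control replicate 1 (adjusted p = 0.123), control replicate 2 (adjusted p = 0.0518), control replicate 3 (adjusted p = 0.102) or SAM replicate 2 (adjusted p = 0.213).

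Of the 4 genes lower with SAM, Cbr2 had 63.9, 64.7 and 46.6 CPM in SAM libraries, against 109, 96.9 and 98.98 CPM in control libraries, a log2 change of -0.80 ± 0.12 (SE), adjusted p = 3.05e-06, and -0.67 (adjusted p = 0.0105) without SAM replicates 2 and 3. Gsto1 had 98.7, 105 and 96.03 CPM in SAM libraries, against 141, 141 and 136 CPM in control libraries, a log2 change of -0.48 ± 0.09 (SE), adjusted p = 0.000343, and -0.50 (adjusted p = 0.0376) without the 2. Gstm2 had 74.4, 93.6 and 87.1 CPM in SAM libraries, against 137, 148 and 137 CPM in control libraries, a log2 change of -0.73 ± 0.13 (SE), adjusted p = 5.38e-05, and -0.92 (adjusted p = 0.00186) without the 2. Txn1 was lower at a log2 change of -0.40 ± 0.09 (SE), adjusted p = 0.00304, and its change without the 2 libraries was -0.37 (adjusted p = 0.153). In each of the 4 the SAM libraries lay below all control libraries. The comparison of SAM with control and that of TGFβ with control share the control libraries. The cystine importer Slc7a11 had a SAM change of -0.16 ± 0.42 (adjusted p = 0.854), and Nqo1 one of 0.98 ± 0.59 (adjusted p = 0.317).

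In TGFβ+SAM libraries 3 genes were higher and 1 lower than in TGFβ libraries, where 3.07% of all genes tested were higher and 4.25% lower, 7.32% in all. Gclc had 258, 207 and 193 CPM in TGFβ+SAM libraries, against 141, 140.1 and 111 CPM in TGFβ libraries, a log2 change of 0.74 ± 0.10 (SE), adjusted p = 1.34e-06. Gpx1 had 364, 330.2 and 387 CPM in TGFβ+SAM libraries, against 288, 265 and 263 CPM in TGFβ libraries, a log2 change of 0.40 ± 0.09 (SE), adjusted p = 0.00411, and Gpx3 was higher by 0.34 ± 0.08 (SE), adjusted p = 0.00384. These 3 were also higher with SAM in cells without TGFβ, a comparison that shares no library with this one. They are 3 of the 9 called higher there and all 3 of those called higher here. The share of all genes tested that were higher in both comparisons was not computed. The SAM-treated libraries of both comparisons also belong to the same block of library numbers. Srxn1 had 51.4, 50.2 and 71.1 CPM in TGFβ+SAM libraries, against 94.7, 78.6 and 80.6 CPM in TGFβ libraries, a log2 change of -0.55 ± 0.13 (SE), adjusted p = 0.00545. That call was lost without TGFβ replicate 1 (adjusted p = 0.0647), TGFβ+SAM replicate 1 (adjusted p = 0.055) or TGFβ+SAM replicate 2 (adjusted p = 0.0643).

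**Figure D4:**
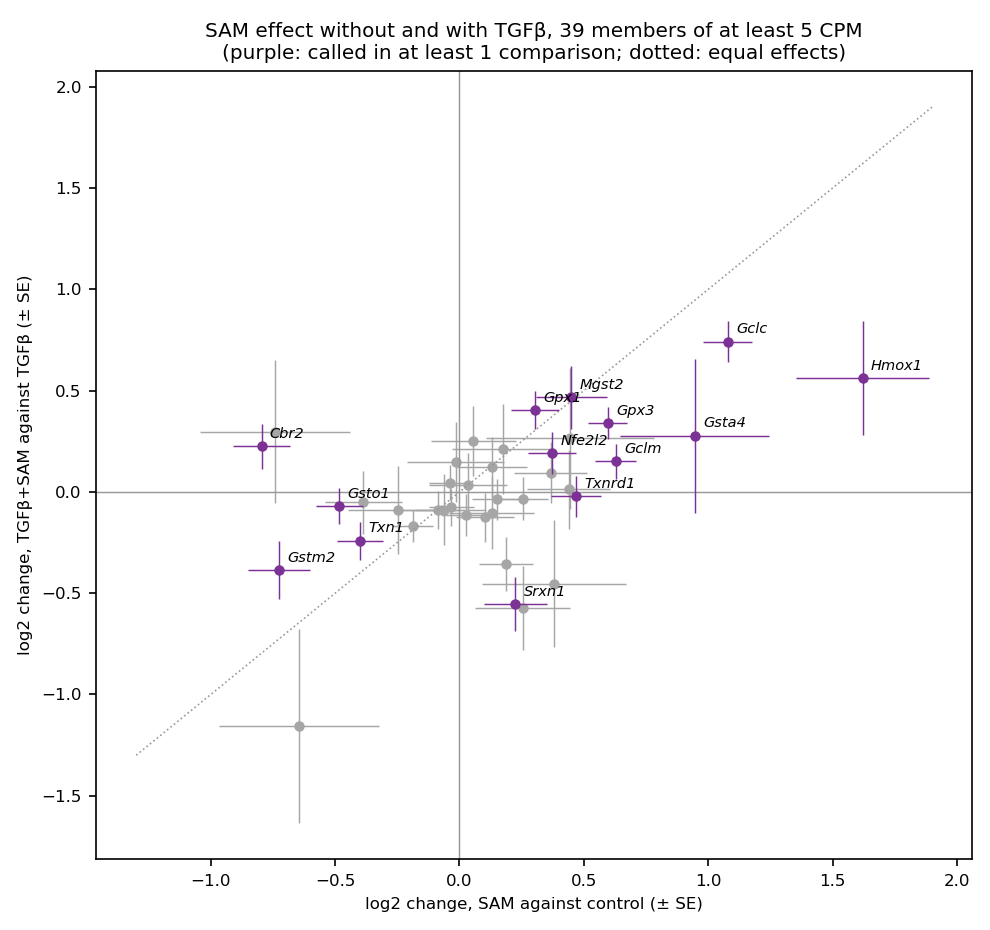
Fitted log2 change with SAM in cells without TGFβ (x axis) and with TGFβ (y axis), each ± SE, for 39 genes of at least 5 CPM, with genes called in at least 1 of the comparisons in purple and a dotted line where both effects are equal. Gclc lies at 1.08 and 0.74, Hmox1 at 1.62 and 0.56, Cbr2 at -0.80 and 0.23, and Srxn1 at 0.23 and -0.55.

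Whether the TGFβ effect itself differed with SAM was tested by the interaction, the TGFβ change with SAM minus the change without it. Of the 46 genes 3 passed, 1 above 0 and 2 below, where 0.802% of all genes tested were above and 0.631% below, 1.43% in all. Cbr2 had an interaction of 1.02 ± 0.16 (SE), adjusted p = 7.62e-05: its TGFβ change was 1.35 ± 0.12 with SAM and 0.33 ± 0.11 without. An interaction of at least 2-fold above 0 was found in 0.356% of all genes. Gclm had an interaction of -0.48 ± 0.12 (SE), adjusted p = 0.0223, from TGFβ changes of -1.21 ± 0.08 with SAM and -0.73 ± 0.08 without. Srxn1 had an interaction of -0.78 ± 0.18 (SE), adjusted p = 0.0152, from TGFβ changes of -1.22 ± 0.13 with SAM and -0.44 ± 0.13 without. Leaving out SAM replicates 2 and 3, the Cbr2 value was 0.91 (adjusted p = 0.0133), that of Gclm -0.54 (adjusted p = 0.102) and that of Srxn1 -0.77 (adjusted p = 0.143). The Gclm call was lost without control replicate 2 (adjusted p = 0.0694), control replicate 3 (adjusted p = 0.0948), TGFβ replicate 1 (adjusted p = 0.101), TGFβ replicate 2 (adjusted p = 0.087) or SAM replicate 1 (adjusted p = 0.112). The Srxn1 call was lost without control replicate 2 (adjusted p = 0.0612), control replicate 3 (adjusted p = 0.0611), TGFβ replicate 1 (adjusted p = 0.0854), TGFβ+SAM replicate 1 (adjusted p = 0.0704) or TGFβ+SAM replicate 2 (adjusted p = 0.0788). Of the genes lower with TGFβ in the fit of all 18 libraries, G6pdx, Gsr, Gstt3, Hmox1, Prdx2, Slc7a11 and Txnrd1 were called with SAM present and not on the other backgrounds. None of these 7 passed the interaction as fitted here, with adjusted p between 0.075 and 0.948. Under alternatives 2 of the 7 did. Txnrd1 passed with DESeq2 (adjusted p = 0.0406), with edgeR on the compared groups alone (adjusted p = 0.0452), with NAM replicate 3 and TGFβ+NAM replicate 1 left out (adjusted p = 0.0364) and without TGFβ+SAM replicate 1 (adjusted p = 0.0183), and Hmox1 with no low-count filter (adjusted p = 0.0408). Over the 46 genes the median interaction was -0.16, against -0.00274 over all genes tested.

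None of the 46 passed in NAM against control, where 0.00742% of all genes tested did, and none in TGFβ+NAM against TGFβ, where 0.0817% did and 0.052% were lower. By unadjusted p below 0.05 the counts were 5 and 4, or 10.9% and 8.7% of the 46, against 5.36% and 6.92% of all genes. DESeq2 called 2 and 1, against 0.111% and 0.297% of all genes. The lowest adjusted p by edgeR was that of Gclm in the first, 0.158 at -0.39 ± 0.08, and that of Cbr1 in the second, 0.122 at -0.43 ± 0.11. Averaged over both backgrounds, Gclm was lower with NAM at a log2 change of -0.32 ± 0.06 (SE), adjusted p = 0.00636, the 1 member to pass, where 0.342% of all genes tested did. Its levels were 194, 187 and 205 CPM in TGFβ+NAM libraries and 305, 290.4 and 286 CPM in NAM libraries, against 248, 243 and 203 CPM in TGFβ libraries and 398, 381 and 374 CPM in control libraries. All 3 NAM libraries lay below all control libraries, whereas TGFβ+NAM replicate 3 lay above TGFβ replicate 3. Without NAM replicate 3 and TGFβ+NAM replicate 1 the average was -0.31 (adjusted p = 0.0126). Cbr1 and Gclc had averages of -0.31 ± 0.07 (adjusted p = 0.0517) and -0.26 ± 0.07 (adjusted p = 0.124). For the interaction of TGFβ with NAM, edgeR called 0 of the 46 and 0 of all genes tested, DESeq2 called 0 of the 46, and 2 of the 46 had an unadjusted p under 0.05. Over all genes tested 462, or 3.43%, had an unadjusted p under 0.05. The 2 members were Cbr2 at 0.43 ± 0.16 and Gstm1 at -0.57 ± 0.17.

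The pathway reaches beyond the 64 genes, and the further lists were read against the shares of all genes given above. Their SAM values include SAM replicates 2 and 3 and were not computed without them. Of 19 tested NRF2 targets outside the 64, 5 were lower and 3 higher with TGFβ than in control cells, 7 lower and 4 higher with NAM present and 5 lower and 4 higher with SAM present, and 3 were higher and 1 lower with SAM. Fth1, the heavy chain of the iron store ferritin, was lower with TGFβ at a log2 change of -1.24 ± 0.08 (SE), adjusted p = 2.34e-15, and higher with SAM by 0.71 ± 0.08. Entpd5 was lower with TGFβ at a log2 change of -1.05 ± 0.18 and Ephx1, a microsomal epoxide hydrolase, at a log2 change of -0.68 ± 0.09. Mgll, which breaks down monoacylglycerols, was higher with TGFβ by 2.51 ± 0.29 (SE), adjusted p = 4.87e-09. Of 14 tested partners and regulators of NRF2, 1 was lower and 1 higher with TGFβ alone, 1 lower and 2 higher with NAM present and 3 lower and 2 higher with SAM present. Ahr, the aryl hydrocarbon receptor, was higher by 1.30 ± 0.27 (SE), adjusted p = 0.000296, and Atf3 lower at a log2 change of -0.74 ± 0.21, while Bach1, a repressor at the same elements, had -0.05 ± 0.19 and Cul3, which joins KEAP1 in marking NRF2, 0.02 ± 0.10. Atf3 was lower at -1.11 ± 0.21 with NAM present and at -2.83 ± 0.24 with SAM present (adjusted p = 7.79e-13). Its interaction of TGFβ with SAM was -2.10 ± 0.32 (adjusted p = 3.98e-05). Maff was higher with TGFβ when SAM was present, at 1.07 ± 0.26 (adjusted p = 0.0015). Of the aryl hydrocarbon receptor's targets 2 of 7 were tested and both were higher with TGFβ without a supplement, as with NAM present, and 1 with SAM present. Without a supplement Cyp1b1 was higher by 1.31 ± 0.21 and Tiparp by 0.42 ± 0.11.

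Of 13 tested genes of glutathione breakdown, glutaredoxins and glyoxalases, 4 were lower with TGFβ than in control cells. With NAM present 2 were lower and 2 higher, those higher being Ggct at 0.94 ± 0.23 and Oplah at 3.77 ± 1.17. The other Oplah changes were -0.19 ± 0.87 in TGFβ against control, 0.16 ± 0.88 in TGFβ+NAM against TGFβ and -3.80 ± 1.16 in NAM against control. None of these passed, the last at an adjusted p of 0.638. With SAM present 3 of the 13 were lower and 1 higher, Glo1 at 0.75 ± 0.15. Anpep, an aminopeptidase of the brush border that trims the products of glutathione breakdown, was lower with TGFβ at a log2 change of -2.32 ± 0.42 (SE), adjusted p = 4.25e-05, and higher with SAM by 1.06 ± 0.34 (adjusted p = 0.0355). Hagh, glyoxalase 2, was lower with TGFβ at a log2 change of -1.34 ± 0.17, and Glo1, glyoxalase 1, was lower with SAM at a log2 change of -0.84 ± 0.15 (SE), adjusted p = 5.83e-05. Of 15 tested superoxide and peroxide enzymes, 4 were lower and 1 higher with TGFβ alone, 3 lower and 1 higher with NAM present and 6 lower and 2 higher with SAM present. Named by the values without a supplement are the mitochondrial superoxide dismutase Sod2 at -0.95 ± 0.13 (SE), adjusted p = 2.29e-07, Txnrd3 at -1.02 ± 0.24 and the matrix peroxidase Pxdn at 0.78 ± 0.13. Of 8 tested transsulfuration and cysteine genes, 2 were lower with TGFβ without a supplement, 3 lower and 1 higher with NAM present and 4 lower with SAM present, and 3 were higher and 1 lower with SAM. The 3 higher with SAM were Mpst, Ethe1 and Slc3a2. Of the transsulfuration enzymes Cbs and Cth, Cbs had too few reads to be tested. Cth had a SAM change of -0.03 ± 0.18 (adjusted p = 0.936). Csad, which leads cysteine toward taurine, was lower with TGFβ at a log2 change of -0.76 ± 0.13 and lower with SAM at a log2 change of -0.78 ± 0.13. Slc3a2, the partner chain of the cystine importer, was higher with SAM by 0.51 ± 0.08 (SE), adjusted p = 1.81e-05. Its TGFβ change was -0.18 ± 0.08 without a supplement, which did not pass (adjusted p = 0.134). It was lower with TGFβ at -0.41 ± 0.08 with NAM present (adjusted p = 0.000177) and at -0.81 ± 0.08 with SAM present (adjusted p = 1.96e-10). The interaction of TGFβ with SAM was -0.63 ± 0.12 for Slc3a2 (adjusted p = 0.00102) and 1.07 ± 0.21 for Glo1 (adjusted p = 0.00157).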

How the data were processed

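The deposited table holds raw counts, whole reads per gene in each of 18 libraries, with no normalization by the authors. The submitters' processing notes name the tools STAR and HTSeq and list no version. The notes name the build GRCh38, whereas the gene identifiers are of mouse, so the build used for counting is not settled. No source used here gives the strand setting or annotation release. Symbols and coordinates were taken from GENCODE M21 (GRCm38), and promoter sequences from RefSeq (GRCm38.p6). Reads outside genes made up 22.8% to 28.2% of a library's reads and ambiguous reads 0.607% to 0.779%, and neither was used.

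Counts were tested with edgeR 4.0.16 in R 4.3.3. Library sizes were scaled by the trimmed mean of M-values (TMM), filterByExpr with a minimum count of 10 left 13469 genes, and 1 quasi-likelihood fit covered the 18 libraries, each group having its own term. Tests are two-sided, and p-values were adjusted by Benjamini and Hochberg within each of 10 contrasts. CPM use the TMM-scaled total of tested genes. Changes are fitted log2 values ± SE with 95% intervals. The procedure was tested on simulated data. Groups came from the sample titles. Of the tubular markers, 1 is not reported here by itself. The genes, lists and tests were chosen with earlier results of these data known. Members past an adjusted p of 0.05 with a mean of at least 5 CPM and a log2 change of at least 1 in size are given in every library, and others by change or count, apart from Gpx1, Gpx3, Prdx6, Slc7a11 and Txnrd1, whose library values were chosen for printing after they were seen. From the other lists, members past the test with a log2 change of at least 1 in size could be named, with up to 2 others of smallest p. Bach1, Cul3, Cbs, Cth, Ethe1, Ggct, Mpst and the markers with fitted changes were named after their values were seen. Gene copies were compared by 50-base words shared between the last 500 bases of annotated transcripts. Depth limits genes of few reads, and the counts carry no molecular identifiers. The SEs and p-values cover counting error and the spread between the libraries of a group, which may be technical.

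Same-numbered replicates of different groups did not deviate together. Their correlations over genes ran from -0.0997 to 0.0696, and the labels tie no number to a shared day, so samples were treated as unpaired. Of all pairs of libraries from different groups, 2 had a correlation over 0.1. NAM replicate 3 and TGFβ+NAM replicate 1 had 0.168, and TGFβ+NAM replicate 1 and TGFβ+SAM replicate 3 had 0.104. These libraries are the ones named above as differing from their replicates. The cause was not tested. Alternatives were DESeq2 1.42.0, other scalings and filters, fits of the compared groups alone, a replicate block and leaving out libraries.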

Additional observations from a re-analysis of the deposited data

Results flagged for a closer look

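For 3 genes the effect of TGFβ differed with SAM by a test of the difference itself, the interaction term of edgeR's quasi-likelihood fit with Benjamini-Hochberg adjustment over all genes. Cbr2, a mitochondrial carbonyl reductase, had an interaction of 1.02 ± 0.16 (SE), adjusted p = 7.62e-05, with 149 ± 14.7 CPM in TGFβ+SAM libraries and 58.4 ± 10.3 CPM in SAM libraries, and 127 ± 12.2 CPM in TGFβ libraries and 102 ± 6.34 CPM in control libraries (SD, n = 3 each). Gclm, the regulatory subunit of glutamate-cysteine ligase, had an interaction of -0.48 ± 0.12 (SE), adjusted p = 0.0223, with 258 ± 9.94 CPM in TGFβ+SAM libraries and 595 ± 28.6 CPM in SAM libraries, and 232 ± 24.9 CPM in TGFβ libraries and 384 ± 12.2 CPM in control libraries. Srxn1, sulfiredoxin, had an interaction of -0.78 ± 0.18 (SE), adjusted p = 0.0152, with 57.6 ± 11.7 CPM in TGFβ+SAM libraries and 134 ± 5.68 CPM in SAM libraries, and 84.6 ± 8.79 CPM in TGFβ libraries and 115 ± 9.24 CPM in control libraries. With 3 libraries a group, no group was large enough to be searched for single outlying libraries.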

How the results depend on the processing

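Of 7630 single-gene values under alternatives, 111 lost a call and 81 gained one. None that was called in the fit above or in the alternative had opposite signs in them. Changes of sign in genes called in neither were not counted. Of 168 recomputed counts of called members, 148 stayed within 1.5 times the count given above. The calls that held under every alternative numbered 17 of 22 for TGFβ against control, 20 of 25 with NAM present, 21 of 32 with SAM present, 7 of 13 for SAM against control, 3 of 4 for TGFβ+SAM against TGFβ, 1 of 1 for the NAM average and 1 of 3 for the interaction with SAM, that of Cbr2. Shares in brackets are those of all genes in the same fit. With DESeq2 the members called were 2 in NAM against control (0.111%), 1 in TGFβ+NAM against TGFβ (0.297%), 3 in the NAM average (0.624%) and 5 in the interaction with SAM (2.06%), where edgeR gave 0, 0, 1 and 3. With no low-count filter these counts were 1 (0.0658%), 1 (0.14%), 3 (0.443%) and 5 (1.04%), and with a minimum count of 30 the NAM average had 2 (0.379%). Fits of only the compared groups called 21 for SAM against control (19.1%) and 6 for the interaction with SAM (1.93%). Without SAM replicates 2 and 3, that is with 1 SAM library, these were 7 (3.19%) and 1 (0.431%). Leaving out both NAM replicate 3 and TGFβ+NAM replicate 1 gave 15, whose share is not given here, and 6 (2.07%). In that fit TGFβ+NAM against TGFβ had 1 (0.145%), Gstm1 at -0.64 (adjusted p = 0.00733). The cause of these shifts was not tested.

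Leaving out 1 library at a time gave 19 to 21 calls for TGFβ against control, 22 to 24 with NAM present, 28 to 29 with SAM present, 9 to 12 for SAM against control, 3 to 6 for TGFβ+SAM against TGFβ, 1 to 3 for the NAM average, 1 to 3 for the interaction with SAM and 0 to 1 for TGFβ+NAM against TGFβ. These ranges, and the counts with a block below, stand without the shares of all genes in the same fits. They describe the number of calls only. The interaction had 1 without control replicate 2 (0.946% of all genes) or control replicate 3 (1.1%). The NAM average had 3 without TGFβ replicate 3 (0.195%) and 2 without NAM replicate 1 (0.217%). TGFβ+NAM against TGFβ had 1 without TGFβ+NAM replicate 1 (0.101%). With the replicate number as a block, 21 were called for TGFβ against control, 25 with NAM present, 32 with SAM present, 13 for SAM against control, 4 for TGFβ+SAM against TGFβ and 3 for the interaction with SAM. The block lost Cbr1 (adjusted p = 0.0534) and, with NAM present, Taldo1 (adjusted p = 0.0501), gained Gsta4 there (adjusted p = 0.048), and changed no other call. The replicates share only a number: 6 of 18 libraries correlated best with a library of their own number. Members of few reads, such as Slc7a11, Nqo1, Gstm6 and Gsto2, have wide intervals, so changes of moderate size were not detectable for them at this depth.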
